A study of Mus musculus with 16 samples.

Results

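The interferon response and class I antigen presentation genes examined here are 33 named mouse genes, taken as the rows of the deposited expression table whose gene name is on the list, out of 35275 rows. All 33 were found. They comprise 28 interferon-stimulated genes and 5 genes of the class I pathway (Tap1, Tapbp, B2m, H2-K1 and H2-D1). The cells were C2C12, a long-established line of mouse myoblasts, which form multinucleated myotubes on withdrawal of serum and are PAX7 negative by the labels. The study deleted miR-206 and both copies of miR-1a (miR-1a-1 and miR-1a-2), microRNAs of muscle, in the same cells (triple knockout, tKO) to ask what this family does in muscle cells. The 4 groups were wild-type control cells and tKO cells, each sampled near confluence in growth medium with 20% fetal bovine serum (GM) and after 3 days in medium with 2% horse serum (DM3). Each group held 4 libraries of poly(A)-selected RNA, made of 2 lines with 2 cultures (BR1 and BR2, called culture 1 and culture 2 below). The control lines were populations, while each tKO line was 1 clone, so a feature of a clone and an effect of the deletion can be separated only as far as the clones agree. Nothing in the labels says what the culture number marks, so p-values measure the spread between these libraries, which may be in part technical.

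Type I and type III interferons signal through surface receptors and the kinases Jak1 and Tyk2 to a complex that holds Stat2 and Irf9 and binds an interferon-stimulated response element in the promoters of target genes. The targets include RNA sensors, proteins that block viral RNA or budding, the ubiquitin-like modifier Isg15 and its protease Usp18, and Irf7, which feeds forward onto the interferon genes. Class I molecules show peptides at the cell surface: H2-K1 and H2-D1 are heavy chains, B2m is their light chain, Tap1 is 1 subunit of the peptide transporter and Tapbp (tapasin) bridges the transporter and the heavy chain. Interferon raises this machinery in most cells, and skeletal muscle fibres are known for low class I at rest.

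Values are FPKM (fragments relative to the gene's length in kilobases and to the library total), so levels of different genes can be compared per length. Depth was 22642563 to 56585952 fragments per library, and 3 fragments was taken as the detection floor. The deleted microRNAs were not analysed here, so nothing checks the knockout directly. The host transcript of miR-206 had 59 to 608 fragments per control library in DM3, 14 to 152 per tKO library in DM3, and at most 4 in any GM library. Of 10 myoblast and myotube markers, 9 rose in DM3 in each genotype, and Pax7 reached at most 0.0237 FPKM. Correlations across genes were 0.961 to 0.989 between the cultures of a line, and none of the 24 pairs of libraries of a group agreed within sampling noise (chi-square per degree of freedom 19.3 to 235.9). The summed level of 7 immune markers was 0.759 to 4.07 FPKM and that of 4 endothelial markers 0.0158 to 0.483 FPKM over all libraries.

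Most of the 33 genes were low. In control GM, 15 had a mean of at least 1 FPKM and 5 of at least 10 FPKM. B2m stood highest in each group (145.3 FPKM on average in control GM and 303.4 in tKO DM3), followed by Ifi27, a small membrane protein induced by interferon, and Tapbp. At the other end, Mx1, the myxovirus resistance GTPase, never exceeded 3 fragments. With a filter at a mean of 0.5 FPKM over the 16 libraries, 20 of the 33 could be tested. The 13 below it were Ifih1, Dhx58, Mx1, Mx2, Oas1a, Oas2, Oasl1, Oasl2, Rsad2, Gbp2, Gbp3, Usp18 and Ifi44. Ifit1 and Xaf1 passed only through the library described next.

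**Figure D1:**
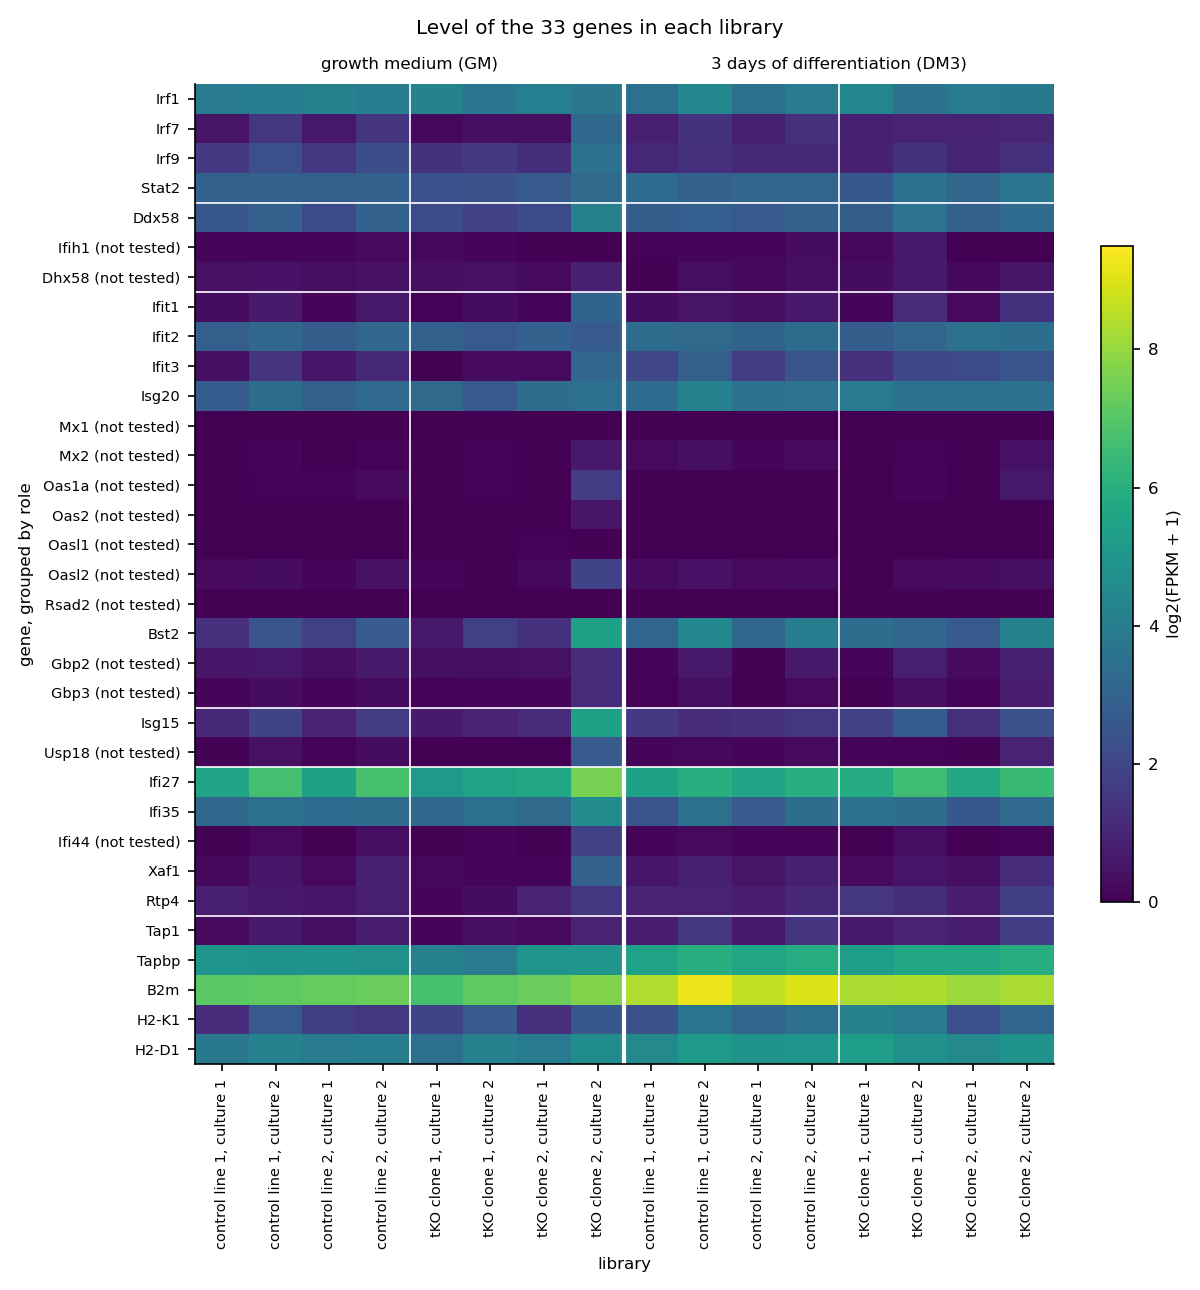
Level of each of the 33 genes (rows, grouped by role, white lines between roles) in each of the 16 libraries (columns), as log2(FPKM + 1) on the colour scale. The column of tKO clone 2, culture 2 in GM is brighter than the other GM columns for most interferon-stimulated genes, and B2m and Tapbp are brighter in DM3 than in GM.

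One library stood apart. In tKO clone 2, culture 2, in GM, 17 of the 20 tested genes were at their highest of the 8 GM libraries, where 8.86% of all 11832 tested genes were. The exceptions were Irf1, Ifit2 and H2-K1. At least 2-fold above the next GM library (on FPKM + 1) were 9 of the 20 (Irf7, Irf9, Ddx58, Ifit1, Ifit3, Bst2, Isg15, Ifi35 and Xaf1), against 0.144% of all tested genes, which is 17 genes. Ifit1 and Xaf1 had to be high here, since they passed the filter only through this library. Over the other 18, 15 were highest and 7 at least 2-fold above the next. In the other 7 GM libraries, at most 1 of the 20 was highest and none was 2-fold above the next. Of all 33 genes, 26 were at their GM maximum in this library and 19 at their maximum of all 16 libraries. These counts take in the 13 genes below the filter. No share over all genes was computed for them, so they have nothing to be set against. The library had 30811874 fragments, within the range of the others. These genes were singled out after their values were seen.

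Among the regulators, Irf7 and Irf9 stood furthest from the other GM libraries. Irf7 (ENSMUSG00000025498; chromosome 7, 141262706 to 141266481 on mm10, minus strand) stood at 8.14 FPKM in this library. In the other 7 GM libraries it stood at 0.151 to 1.82 FPKM, and at 0.299 FPKM in culture 1 of the same clone. Irf9, the DNA-binding subunit of the interferon-activated complex, stood at 10.6 FPKM against 1.38 to 4.05 FPKM. Stat2, its partner, was closer to the rest, at 8.67 FPKM against 4.17 to 6.77 FPKM. Irf1, which responds mainly to interferon gamma and inflammatory signals, was at 12.7 FPKM and inside the range of the others (12.4 to 18.0 FPKM).

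Among the RNA sensors, Ddx58 (RIG-I) stood at 16.6 FPKM against 2.63 to 6.95 FPKM in the other 7 GM libraries. Dhx58 (LGP2) stood at 0.794 FPKM against 0.211 to 0.367 FPKM. Ifih1 (MDA5) had 0 fragments in this library, which allows up to 3, and 0 in culture 1 of the same clone. In DM3 clone 2 had 0 and 4 fragments of Ifih1, where the other 12 libraries of both stages had 12 to 81, so its low count was shared by all 4 libraries of clone 2.

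The antiviral effectors spread widely. Bst2 (tetherin, which holds budding virus at the membrane) stood at 42.3 FPKM (995 fragments) against 0.574 to 5.59 FPKM, 7.56 times the next GM library. Ifit1, which binds viral RNA caps, stood at 7.45 FPKM (610 fragments) against 0.0762 to 0.621 FPKM. Ifit3 stood at 7.85 FPKM against 0.0387 to 1.66 FPKM. Ifit2, which lies beside both on chromosome 19, stood at 5.56 FPKM and below 6 of the other 7, which ran from 5.37 to 8.11 FPKM. Of the oligoadenylate synthetase genes, Oas1a reached 2.20 FPKM (128 fragments, 11.3 times the next) and Oasl2 2.81 FPKM (270 fragments, 8.15 times the next). Oas2 had 49 fragments and at most 0.0223 FPKM in the other GM libraries, while Oasl1 had 0 fragments. The guanylate-binding protein genes Gbp2 and Gbp3 stood at 1.32 and 1.28 FPKM against at most 0.610 and 0.252 FPKM. Mx2 had 42 fragments, but Mx1 and Rsad2 (viperin) had 1 fragment each, so 3 textbook interferon targets (Mx1, Rsad2 and Oasl1) stayed at or under the floor in this library. Ifit1 and Ifit3, and the Oas genes, have close relatives, and how reads shared between copies were counted is not given in the sources used here.

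Isg15, a ubiquitin-like modifier, showed the largest difference to the next GM library among the 20 tested genes. It stood at 42.8 FPKM (996 fragments) in this library, 15.7 times the next. The other tKO GM libraries had 0.625 FPKM (clone 1, culture 1), 0.876 FPKM (clone 1, culture 2) and 1.22 FPKM (clone 2, culture 1). The control GM libraries had 0.902 to 2.71 FPKM. Usp18, which removes Isg15 and damps the receptor, stood at 5.56 FPKM (303 fragments), 16.3 times the next GM library, and had 0 fragments in culture 1 of the same clone.

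Of the remaining interferon-stimulated genes, Xaf1, linked to apoptosis, stood at 6.55 FPKM against 0.0982 to 0.816 FPKM. Ifi44 stood at 2.59 FPKM (324 fragments) against at most 0.280 FPKM. Ifi35 stood at 22.7 FPKM against 8.19 to 10.3 FPKM, and Ifi27 at 186.9 FPKM against 34.2 to 105.5 FPKM. Rtp4, a chaperone for receptors, stood at 1.90 FPKM against 0.107 to 0.871 FPKM. The class I genes other than H2-K1 were closer to the other libraries: B2m was at 204.8 FPKM against 106 to 161 FPKM, H2-D1 at 23.4 against 10.4 to 17.2 FPKM, Tap1 at 0.871 against 0.112 to 0.644 FPKM, and Tapbp at 29.6 FPKM in this library, in culture 1 of the clone and in control line 1, culture 1.

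**Figure D2:**
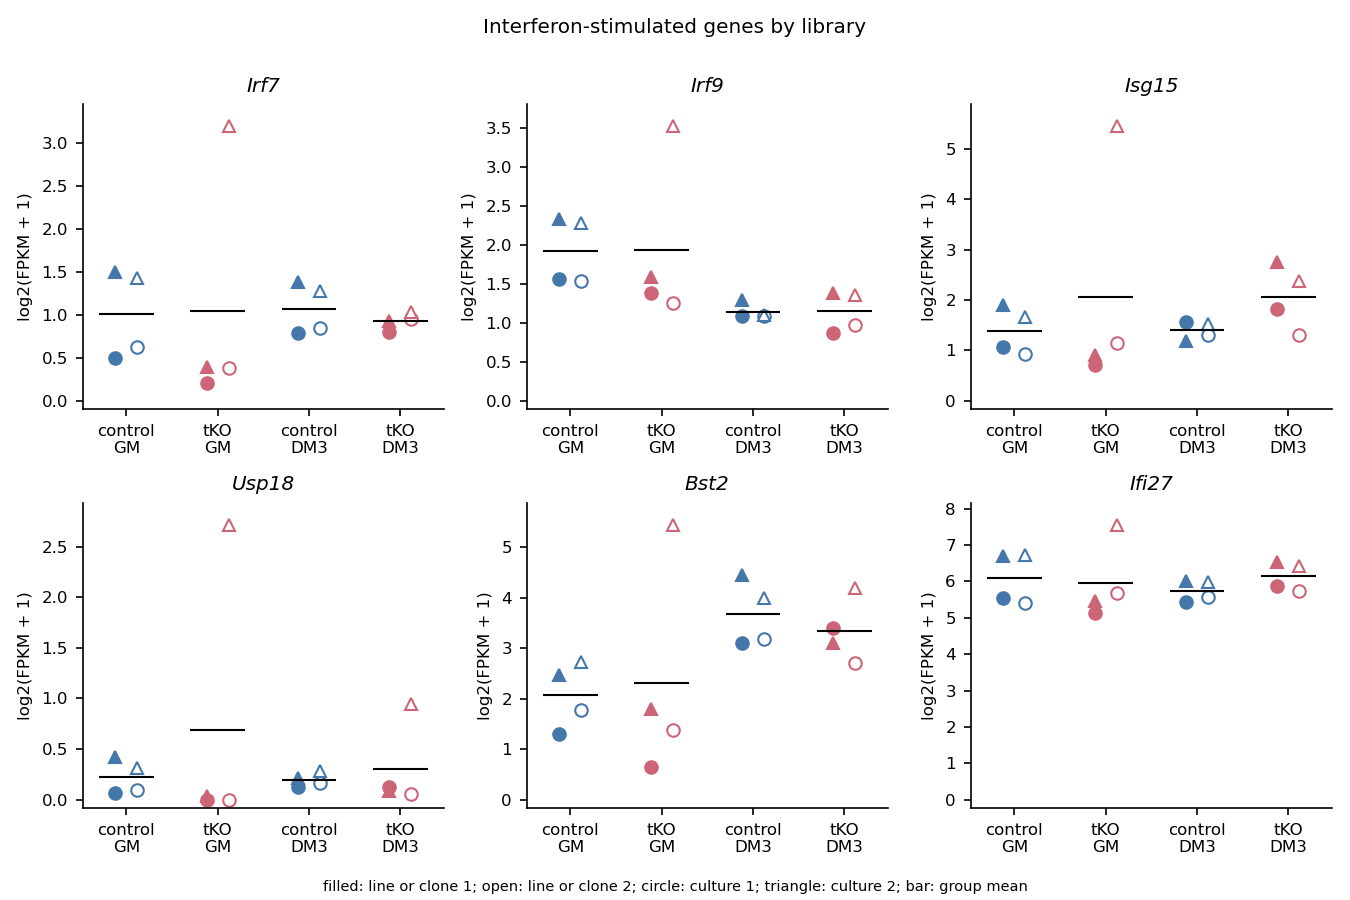
Level of 6 interferon-stimulated genes in each library as log2(FPKM + 1), by group. Filled symbols are line or clone 1, open symbols line or clone 2, circles culture 1, triangles culture 2, and the bar is the mean of the 4 libraries. The open red triangle of tKO GM lies above every other GM library in all 6 panels, and the mean of that group lies between it and the other 3 libraries.

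The difference was smaller in the same clone after differentiation. In tKO clone 2, culture 2, in DM3, Isg15 stood at 4.16 FPKM, Usp18 at 0.926 FPKM, Irf7 at 1.05 FPKM and Bst2 at 17.1 FPKM. Usp18 was still above the other 7 DM3 libraries, which had 0.0408 to 0.217 FPKM. This library held the DM3 maximum of 5 of the 20 tested genes (Stat2, Ifit1, Xaf1, Rtp4 and Tap1), where 16.1% of all tested genes had theirs. Control line 1, culture 2, held it for 7, where 9.14% of all tested genes had theirs.

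Of the interferon genes only 10 were looked up, and others were not examined. The 10 ligand genes listed (Ifna1, Ifna2, Ifna4, Ifna5, Ifnb1, Ifne, Ifnk, Ifng, Ifnl2 and Ifnl3) had 0 fragments in total in it, which allows up to 3, and 1 fragment in all other GM libraries together. In DM3 they had 0 to 7 fragments per library. The library's summed immune markers (2.26 FPKM) and endothelial markers (0.113 FPKM) were inside the ranges of the other libraries. The level across all genes correlated with culture 1 of the same clone at 0.9796. Its part in the group means was measured by leaving it out, and what sets it apart was not tested.

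The promoters of the genes that stood out can be read beside these values. A window from 250 bases before to 50 bases after the start site (RefSeq, GRCm38.p6) was on hand for 26 of the 33 genes. The pattern GAAANNGAAA, the core of the interferon-stimulated response element, was searched on both strands and occurred in 12 of the 26 (46.2%), against 3.99% of 27025 genes with such a window. Of the 9 genes at least 2-fold above the next GM library, 5 held it (Isg15, Ifit1, Ifit3, Bst2 and Ddx58), and Irf7, Irf9, Ifi35 and Xaf1 did not in this window. Of the other 17 genes 7 held it too (Oas1a, Stat2, Rsad2, Ifih1, Gbp2, Gbp3 and B2m), among them Rsad2 with 1 fragment and Ifih1 with 0 in that library. Of the 5 class I genes B2m alone held it. The stretches around the matches are printed 5′ to 3′ on the strand of the gene, with every match in capitals (adjoining matches overlap and read as 1 run), to show the letters found in the 5 of these 9 genes that hold a match, and in B2m. On the gene's own strand GAAA pairs appear for Isg15, Bst2 and B2m, and the reverse complement appears for Ifit1, Ifit3 and Ddx58.
Isg15, chr4:156200845-156200926, minus strand: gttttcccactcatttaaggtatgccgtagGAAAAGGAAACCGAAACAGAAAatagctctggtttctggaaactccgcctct
Ifit1, chr19:34640755-34640843, plus strand: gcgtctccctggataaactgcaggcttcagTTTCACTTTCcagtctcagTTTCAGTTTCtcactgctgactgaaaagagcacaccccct
Ifit3, chr19:34583343-34583446, plus strand: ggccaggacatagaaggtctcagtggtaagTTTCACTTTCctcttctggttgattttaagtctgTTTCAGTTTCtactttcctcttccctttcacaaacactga
Bst2, chr8:71537557-71537632, minus strand: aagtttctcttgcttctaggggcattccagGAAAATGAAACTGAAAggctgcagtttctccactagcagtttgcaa
Ddx58, chr4:40239784-40239853, minus strand: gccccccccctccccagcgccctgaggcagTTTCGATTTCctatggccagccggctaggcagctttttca
B2m, chr2:122147518-122147587, plus strand: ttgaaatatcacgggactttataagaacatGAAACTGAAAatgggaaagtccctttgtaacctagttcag
Isg15 held 3 overlapping matches, the first 78 bases before the start site, and Bst2 2 overlapping matches from 130 bases before it. Ifit1 and Ifit3 each held 2 separate matches, 104 and 85 bases before the start for Ifit1 and 156 and 122 for Ifit3. In B2m the match lay 139 bases before the start, and in Ddx58 it lay 2 bases past it. A match describes these letters only, and says nothing of binding.

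No genotype difference passed in GM. None of the 20 tested genes was called (limma on log2(FPKM + 1), adjusted p under 0.05), where 2.06% of all tested genes did, and none had an unadjusted p under 0.05. With voom on fragment numbers none passed either. None of the 20 had its tKO GM libraries all above or all below control GM, as 14% of all tested genes did. The median difference, tKO minus control, was 0.03 on the log2(FPKM + 1) scale, against -0.01 over all tested genes, and 13 of 20 were positive. This rested on the library that stood apart, through which alone Ifit1 and Xaf1 were tested. Without it the median was -0.28, 3 of 20 were positive (49.3% of all tested genes were), and 5 had an unadjusted p under 0.05 (16.9% of all tested genes had), with none past the adjusted threshold. Leaving it out also left tKO GM with fewer culture 2 than culture 1 libraries, and many of these genes ran higher in culture 2 (below). Within culture 1 alone the median was -0.12, with 4 of 20 positive.

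The regulators show the size of that shift. Irf7 averaged 1.11 ± 0.741 FPKM (SD, n = 4) in control GM and 2.23 ± 3.94 FPKM (n = 4) in tKO GM, or 0.255 ± 0.0909 FPKM (n = 3) without the library. The difference was 0.03 (SE 0.48, adjusted p = 0.987), and -0.69 (SE 0.23, adjusted p = 0.147) without it. Irf9 averaged 2.94 ± 1.17 FPKM in control GM and 3.90 ± 4.46 FPKM in tKO GM, or 1.67 ± 0.316 FPKM without the library, and its difference went from 0.01 (SE 0.37) to -0.52 (SE 0.21, adjusted p = 0.214). Stat2 averaged 6.60 ± 0.177 FPKM in control GM and 5.66 ± 2.10 FPKM in tKO GM, or 4.65 ± 0.755 FPKM without it. Its difference was -0.24 (SE 0.22, adjusted p = 0.622) with the library and -0.43 (SE 0.20, adjusted p = 0.293) without it. For Isg15 the sign turned from 0.67 (SE 0.74) to -0.47 (SE 0.29), and for Bst2 from 0.25 (SE 0.74) to -0.79 (SE 0.42), none past the threshold. Within culture 1 alone the differences were -0.27 for Irf7, -0.23 for Irf9, -0.37 for Stat2, -0.07 for Isg15 and -0.53 for Bst2.

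Of the class I genes in GM, B2m averaged 145.3 ± 11.4 FPKM in controls and 152.7 ± 41.4 FPKM in tKO cells (difference 0.03, SE 0.19, adjusted p = 0.952). H2-K1 averaged 2.77 ± 1.87 and 3.73 ± 1.95 FPKM (difference 0.34, SE 0.42, adjusted p = 0.731), and H2-D1 14.98 ± 1.69 and 16.2 ± 5.46 FPKM (difference 0.06, SE 0.22, adjusted p = 0.920). Tapbp differed by -0.36 (SE 0.21, adjusted p = 0.384). Both libraries of clone 1 were low for Tapbp in GM (16.5 and 14.1 FPKM), whereas clone 2 had 29.6 FPKM in both and controls 26.5 to 29.6 FPKM. With clone 2 left out Tapbp passed as lower in tKO GM, and was the 1 gene of the 20 that did, where 11.1% of all tested genes passed.

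**Figure D3:**
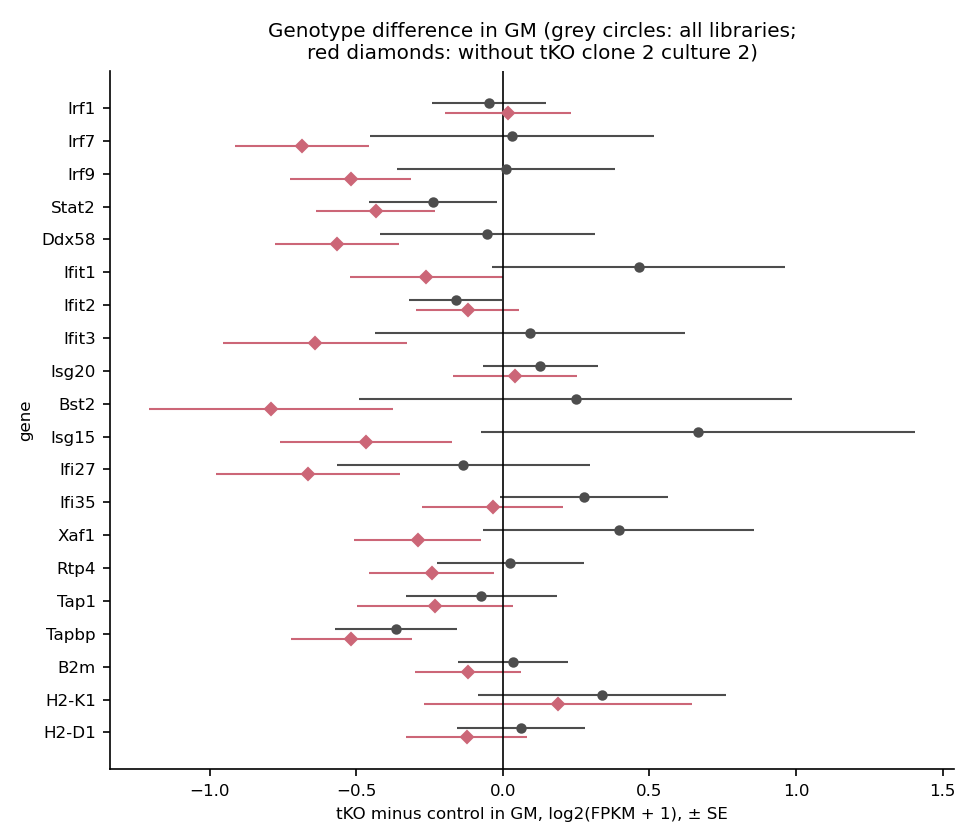
Difference between tKO and control cells in GM for the 20 tested genes on the log2(FPKM + 1) scale, with the standard error of the fit as bars. Grey circles use all libraries and red diamonds leave out tKO clone 2, culture 2, in GM; 13 of 20 circles and 3 of 20 diamonds lie above 0.

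In DM3 no tested gene passed between genotypes either, where 3.38% of all tested genes did, and 1 of the 20, B2m, had an unadjusted p under 0.05. With voom the counts were the same. B2m stood at 332.8, 593.4, 396.2 and 509.0 FPKM in control DM3 (line 1 then line 2, culture 1 then culture 2 in each) and at 312.9, 322.0, 266.0 and 312.8 FPKM in tKO DM3. The groups did not overlap, which was so for 8.52% of all tested genes in either direction, but the gap between the lowest control library and the highest tKO library was small beside the spread of the controls. The difference was -0.56 (SE 0.19, adjusted p = 0.121, and 0.0526 to 0.592 over the alternatives). Whether the B2m difference changed with stage was tested as the interaction of genotype and stage, which gave -0.60 (SE 0.26, adjusted p = 0.425). None of the 20 passed that interaction test (0.254% of all tested genes did), and 1 of 20 had an unadjusted p under 0.05. With voom there was also 1, and none passed.

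The heavy chains differed less between genotypes in DM3, and neither passed. H2-K1 averaged 8.41 ± 3.39 FPKM in control DM3 and 10.6 ± 5.79 FPKM in tKO DM3, a difference of 0.22 (SE 0.42, adjusted p = 0.851), with clone 1 at 16.9 and 13.7 FPKM and clone 2 at 4.04 and 7.63 FPKM. H2-D1 averaged 29.3 ± 6.79 and 28.1 ± 7.18 FPKM, a difference of -0.06 (SE 0.22, adjusted p = 0.924). Stat2 averaged 7.75 ± 0.983 and 8.96 ± 3.16 FPKM, Irf9 1.22 ± 0.159 and 1.25 ± 0.410 FPKM, and Irf7 1.14 ± 0.438 and 0.906 ± 0.128 FPKM, with adjusted p of 0.815, 0.998 and 0.918. Class I alleles vary between mouse strains, and C2C12 came from another strain than the reference genome, so reads of H2-K1 and H2-D1 may be lost or shared among class I genes. The effect of this on their levels was not tested.

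Calls came between stages, where 4 of the 5 class I genes rose in both genotypes. In control cells 6 of the 20 tested genes rose and none fell (Tapbp, B2m, H2-K1, H2-D1, Isg20 and Ifit3), where 23.2% of all tested genes rose and 38.3% fell. In tKO cells 7 rose and none fell (Tapbp, B2m, H2-K1, H2-D1, Isg20, Ifit2 and Stat2), where 24.9% of all tested genes rose and 36.0% fell. Isg20 also rose in both. Stage and genotype comparisons share libraries, so the values of each stand side by side and are not independent. Fewer cells expressing a gene and less RNA per cell cannot be told apart in such bulk samples, nor can myotubes and the myoblasts that remain. The summed level of 4 fibroblast markers (Pdgfra, Col1a1, Dcn and Thy1) also moved with stage. It was 371.2 to 686.1 FPKM in control GM and then 1066 to 1296 FPKM in control DM3. In tKO cells the sum was 240.7 to 554.0 FPKM in GM, then 699.2 to 1825 FPKM in DM3. Their part in these changes was not tested.

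B2m stood at 133, 139, 151 and 159 FPKM in control GM, in the order of lines and cultures used above, below all 4 control DM3 values already given. In tKO GM it stood at 106, 139, 161 and 205 FPKM, also below all 4 tKO DM3 values. B2m rose by 1.62 (SE 0.19, adjusted p = 1.9e-06) in control cells and by 1.02 (SE 0.19, adjusted p = 0.000176) in tKO cells on the log2(FPKM + 1) scale.

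Tapbp stood at 29.6, 27.5, 27.4 and 26.5 FPKM in control GM and at 43.5, 61.5, 46.4 and 58.2 FPKM in control DM3. In tKO cells it stood at 16.5, 14.1, 29.6 and 29.6 FPKM in GM and at 37.9, 51.3, 50.6 and 60.1 FPKM in DM3. Neither genotype overlapped between stages. The rise was 0.88 (SE 0.21, adjusted p = 0.00157) in control cells and 1.17 (SE 0.21, adjusted p = 0.000131) in tKO cells.

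H2-K1 stood at 1.33, 5.50, 2.36 and 1.88 FPKM in control GM and at 4.09, 11.97, 7.58 and 9.98 FPKM in control DM3. In tKO cells it stood at 2.74, 5.68, 1.497 and 5.02 FPKM in GM and at 16.9, 13.7, 4.04 and 7.63 FPKM in DM3. In both genotypes the lowest DM3 library lay below the highest GM library, although every line was higher in DM3 than in GM in each culture. The rise was 1.35 (SE 0.42, adjusted p = 0.0112) in control cells and 1.23 (SE 0.42, adjusted p = 0.019) in tKO cells.

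H2-D1 stood at 13.1, 17.2, 14.4 and 15.2 FPKM in control GM and at 20.9, 37.4, 28.6 and 30.3 FPKM in control DM3, with no overlap. In tKO cells it stood at 10.4, 16.7, 14.4 and 23.4 FPKM in GM and at 38.1, 26.1, 20.9 and 27.4 FPKM in DM3. There the highest GM value was that of the library that stood apart, and it exceeded 1 DM3 value. The rise was 0.90 (SE 0.22, adjusted p = 0.00187) in control cells and 0.78 (SE 0.22, adjusted p = 0.00528) in tKO cells. Tap1, the fifth class I gene, rose in neither test (0.59 in control and 0.57 in tKO cells, adjusted p = 0.0557 and 0.0653), and averaged 0.427 ± 0.233 FPKM in control GM and 1.21 ± 0.691 FPKM in control DM3.

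**Figure D4:**
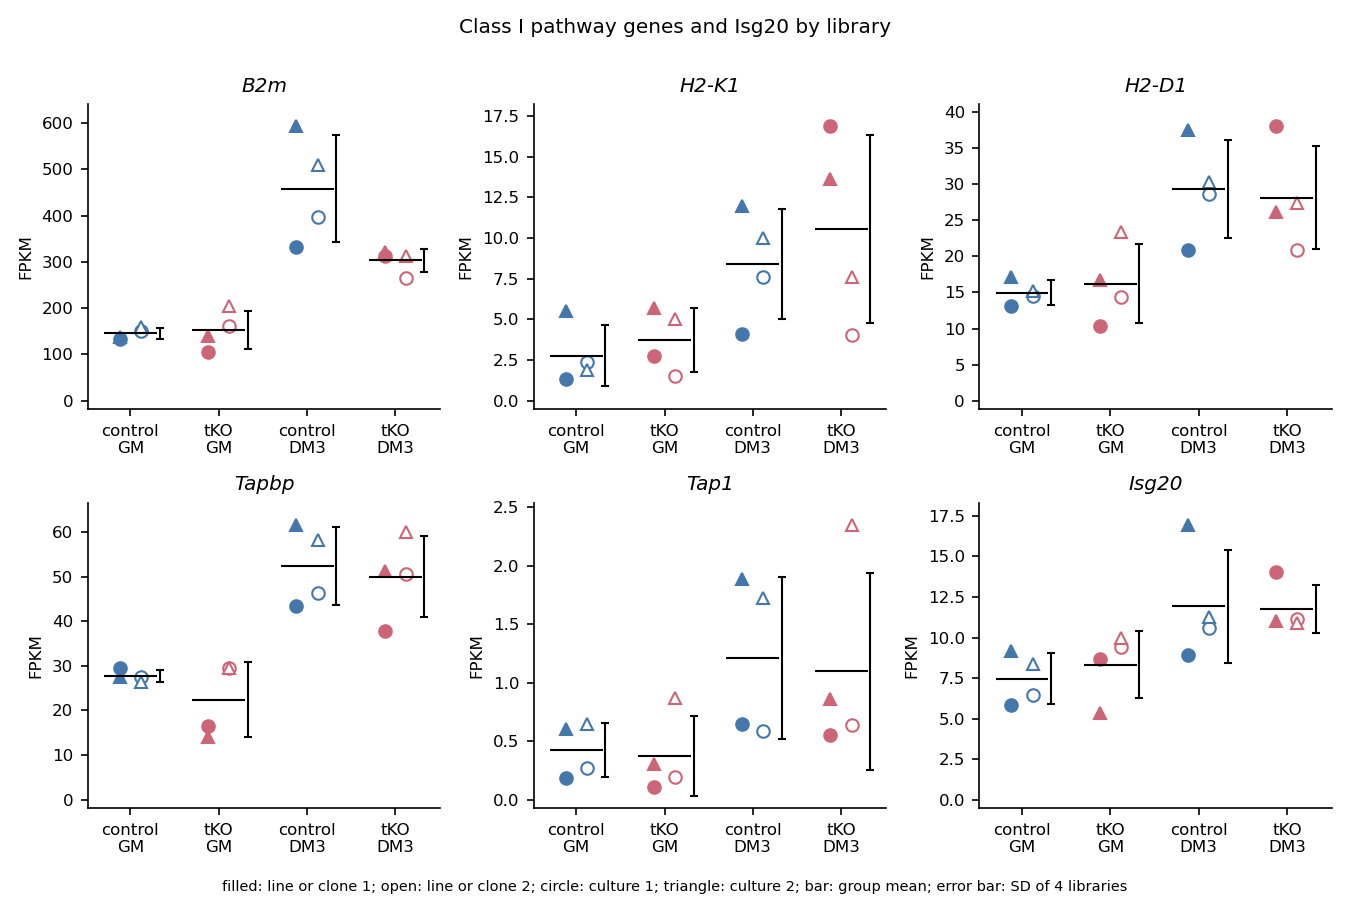
Level in FPKM of the 5 class I genes and Isg20 in each library, by group, with the mean as a line and the SD of the 4 libraries as an error bar. Symbols are filled for line or clone 1 and open for 2, circles for culture 1 and triangles for culture 2. B2m and Tapbp do not overlap between GM and DM3 in either genotype, and B2m in tKO DM3 lies below control DM3.

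Isg20, an RNA exonuclease, stood at 5.84, 9.18, 6.47 and 8.39 FPKM in control GM and at 8.94, 16.9, 10.6 and 11.2 FPKM in control DM3, overlapping by 1 library. In tKO cells it stood at 8.66, 5.32, 9.41 and 9.94 FPKM in GM and at 14.01, 11.03, 11.12 and 10.88 FPKM in DM3, without overlap. The rise was 0.59 (SE 0.20, adjusted p = 0.0156) in control cells and 0.48 (SE 0.20, adjusted p = 0.0462) in tKO cells. The tKO call sat at the threshold and was lost under several settings, with adjusted p between 0.0157 and 0.584.

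Ifit3 rose by 1.42 (SE 0.53, adjusted p = 0.0291) in control cells, from 0.262 to 1.66 FPKM in GM to 2.14 to 6.42 FPKM in DM3, with no overlap. In tKO cells the difference was 1.04 (SE 0.53, adjusted p = 0.1004) and 1.77 (SE 0.31, adjusted p = 0.000193) without the library that stood apart. Of the 20 tested genes, 5 had every control DM3 library above every control GM library (Ifit3, Bst2, Tapbp, B2m and H2-D1), against 24.5% of all tested genes. In tKO cells 3 did (Isg20, Tapbp and B2m), against 19.3%. Bst2 stood at 1.46 to 5.59 FPKM in control GM and 7.61 to 20.8 FPKM in control DM3 (difference 1.61, SE 0.74, adjusted p = 0.0689). Irf9 had every control DM3 library below every control GM library (1.13 to 1.46 against 1.91 to 4.05 FPKM), as did 39.8% of all tested genes, with a difference of -0.78 (SE 0.37, adjusted p = 0.0778).

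The same library moved these counts too. Without it, 13 of the 20 rose in tKO cells (B2m, Bst2, Ddx58, H2-D1, H2-K1, Ifit3, Irf7, Isg15, Isg20, Rtp4, Stat2, Tap1 and Tapbp) and none fell, where 23.3% of all tested genes rose. That also left tKO GM with fewer culture 2 than culture 1 libraries. Since all groups share 1 estimate of spread, the count in control cells changed as well, to 8 that rose, now with Bst2 and Tap1, and Irf9 falling, where 23% of all tested genes rose and 38.2% fell. Without control line 2, 1 rose in control cells (B2m), as did 13.6% of all tested genes. Without tKO clone 1, 3 rose in tKO cells (B2m, Ifit2 and Tapbp), as did 22.1% of all tested genes. Scaling by the median of ratios, which shifts the median of all genes from -0.15 to 0.01 for control cells and for tKO cells from -0.12 to 0.01, gave 9 that rose and none that fell in each genotype, where 30.5% of all tested genes rose in control cells and 30.2% in tKO cells. Under that scaling the split over all tested genes was 3611 higher and 3631 lower in control cells, against 2743 and 4529 without it, and 3571 and 3587 in tKO cells against 2951 and 4257. Over the 20 genes the median change was 0.21 for control cells and 0.52 for tKO cells.

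The cultures of each line were compared at both stages. In GM, 11 of the 20 tested genes were higher in culture 2 than in culture 1 in all 4 lines, against 14.5% of all tested genes. They were Irf7, Irf9, Ifit1, Ifit3, Bst2, Isg15, Ifi27, Ifi35, Tap1, B2m and H2-D1. Ifit1 was tested only through the culture 2 library that stood apart, so for that pair this direction was favoured in advance. In DM3, 10 were (Irf7, Irf9, Ddx58, Ifit1, Ifit3, Ifi27, Xaf1, Tap1, Tapbp and B2m), against 22.7%. Higher in culture 2 in all 4 lines at both stages were 7 genes (Irf7, Irf9, Ifit1, Ifit3, Ifi27, Tap1 and B2m), with the same limit for Ifit1. The share of all tested genes that did so at both stages was not computed, so this number has nothing to be set against.

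Ifi27 shows the pattern outside the library that stood apart. In control GM it stood at 45.9 FPKM in culture 1 and 103.7 FPKM in culture 2 of line 1, and at 41.2 and 105.5 FPKM in line 2. In tKO clone 1 it stood at 34.2 and 43.5 FPKM. Irf7 stood at 0.409 and 1.82 FPKM in control line 1, at 0.543 and 1.69 FPKM in control line 2 and at 0.151 and 0.316 FPKM in tKO clone 1. For both genes the control lines differed between cultures by more than they differed from each other.

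None of the 20 passed the test of culture 2 against culture 1 in GM (line as a covariate), where 2.11% of all tested genes did, while 9 of 20 had an unadjusted p under 0.05, against 24.1% of all tested genes. With voom 5 passed, all higher (Bst2, Ifi27, Ifit3, Irf7 and Tap1), against 2.63% of all tested genes higher and 2.95% lower. The median difference was 0.59 over the 20 genes, 18 of them positive, against -0.01 over all tested genes. For Ifit1 and Xaf1, tested only through a culture 2 library of GM, the filter favoured this direction. Leaving out either library of tKO clone 2 removes that pair, and the median was then 0.34 with 17 positive. Ifi27 came nearest the threshold with all libraries, at 1.18 (SE 0.22, adjusted p = 0.0534).

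In DM3 none passed either, where 0.0169% of all tested genes did, and 10 of 20 had an unadjusted p under 0.05, against 24.9% of all tested genes. With voom none passed and 11 had an unadjusted p under 0.05, against 24.2% of all tested genes. All 20 were positive, as were 63.1% of all tested genes, with a median of 0.38 against 0.09. Under median-of-ratios scaling 18 were positive (46.7% of all tested genes), and the median was 0.26 against -0.02. With that scaling 5 of 20 had an unadjusted p under 0.05, near the share of 26% over all tested genes. Ifi27 differed by 0.59 (SE 0.09, adjusted p = 0.0622). Without the pair of tKO clone 1, 6 passed as higher (Bst2, H2-K1, Ifi27, Ifi35, Ifit3 and Tap1), as did 5.83% of all tested genes. Without the pair of control line 1, 1 passed (Ifi27), as did 2.65% of all tested genes in that direction. More genes had fragments in culture 2 than in culture 1 as well: 17132 to 17764 against 16847 to 17045 in GM, and 17572 to 18575 against 16325 to 16569 in DM3. The part of that difference in these values was not tested.

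**Figure D5:**
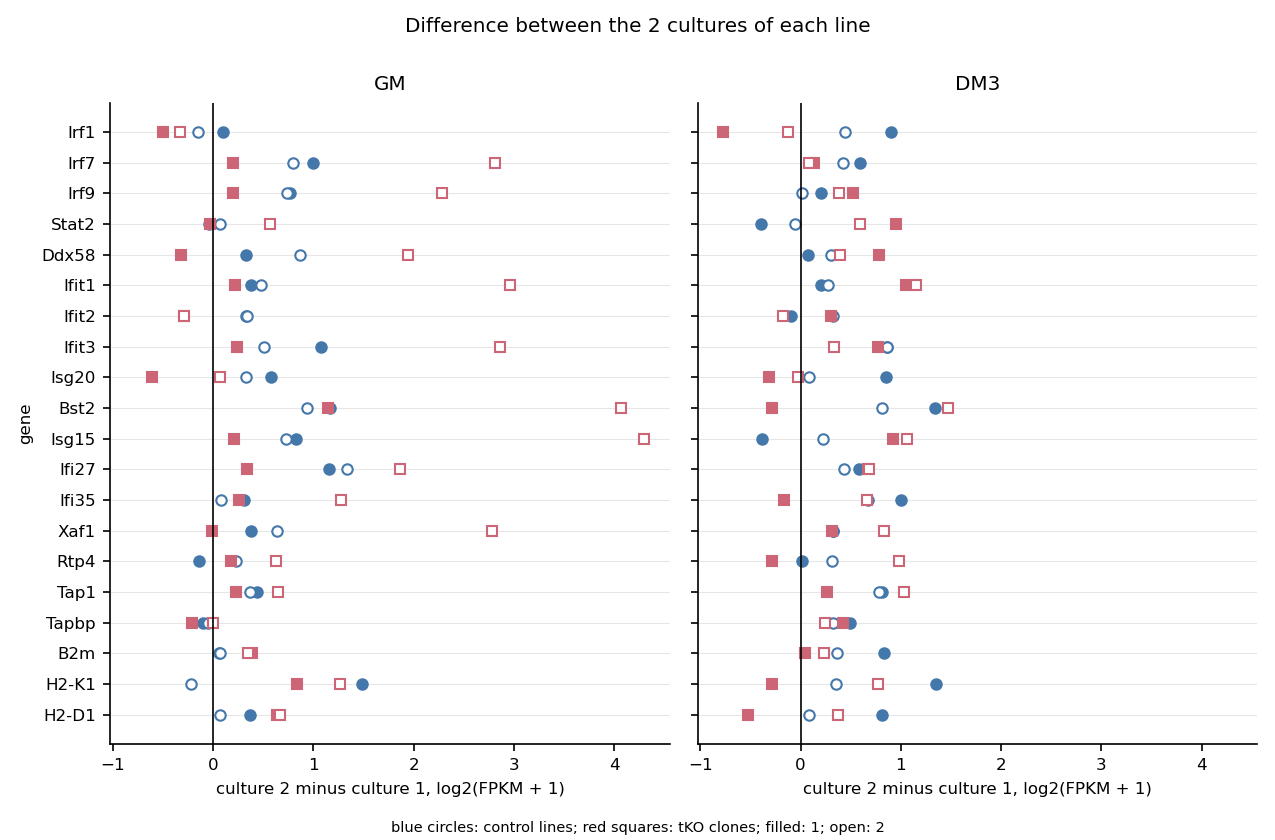
Culture 2 minus culture 1 of each line on the log2(FPKM + 1) scale for the 20 tested genes, in GM (left) and DM3 (right). Blue circles are control lines and red squares tKO clones, filled for 1 and open for 2. Most points lie right of 0 at both stages, and the open squares of GM reach furthest, to above 4 for Isg15 and Bst2.

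Stage was a covariate in the tests between lines of a genotype. None of the 20 passed between the control lines, nor did any other tested gene (0.0%), none had an unadjusted p under 0.05, and voom called none. Between the tKO clones none passed, where 1.05% of all tested genes did. An unadjusted p under 0.05 was found for 2 of the 20 (Tapbp and H2-K1), against 17% of all tested genes. Voom called none and also had 2 under 0.05, against 16.7% of all tested genes. Clone 2 was higher than clone 1 for 18 of 20 (55.2% of all tested genes), with a median of 0.47 against 0.03 over all tested genes. Ifit1 and Xaf1 entered the 20 only through a clone 2 library, so this direction was favoured for them in advance. Without the library that stood apart the median was 0.08. H2-K1 was lower in clone 2, by -0.83 (SE 0.35, adjusted p = 0.265), and Tapbp higher, by 0.61 (SE 0.16, adjusted p = 0.117).

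Other genes of the pathway were read from lists of receptors, sensors, further interferon-stimulated genes, feedback regulators and presentation genes. Between genotypes in GM, 1 of 10 tested receptors and kinases passed: Stat3, which also serves many cytokine receptors, was lower by -0.59 (SE 0.09, adjusted p = 0.0023) in tKO cells. None passed of 11 sensors and adaptors, 21 other interferon-stimulated genes, 6 feedback regulators, 13 class I pathway genes or 2 class II pathway genes. Without the library that stood apart, 2 of the 21 other interferon-stimulated genes passed as lower in tKO GM (Lgals3bp and Ccl5), where 1.25% of all tested genes passed as lower. In DM3 none of these 6 lists held a gene that passed between genotypes. None of the ligand genes could be tested.

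With differentiation these lists held genes that rose and genes that fell, to be read against the 23.2% of all tested genes that rose and the 38.3% that fell in control cells. Of the receptors and kinases 4 rose and 2 fell in control cells, among them Tyk2 (higher by 0.97, SE 0.12) and Stat3 (0.98, SE 0.09). Of the sensors and adaptors 2 rose and 4 fell, with Ticam1, the adaptor of Tlr3, higher by 1.32 (SE 0.13) and Myd88 lower (-1.15, SE 0.13). Of the other interferon-stimulated genes 2 rose and 8 fell. Eif2ak2 (PKR, which halts translation on double-stranded RNA) fell by 1.39 (SE 0.36), Ifi204 by 1.51 (SE 0.22) and Adar by 1.31 (SE 0.18). Of the class I pathway genes 4 rose and 3 fell, Erap1, which trims peptides, by 1.24 (SE 0.19) and the immunoproteasome subunit Psmb10 by 1.02 (SE 0.14). Adjusted p for these named genes was at most 0.00324. In tKO cells the counts were 4 and 1, 4 and 5, 4 and 7, and 6 and 2. Of the feedback regulators Ptpn6 fell in both genotypes, and Cd74, the class II invariant chain, rose in both (2.22 and 2.78).

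In the library that stood apart, 8.86% of all tested genes were at their highest of the 8 GM libraries. Of the lists, 13 of the 21 tested other interferon-stimulated genes were, as were 6 of 13 class I pathway genes and 4 of 11 sensors and adaptors. So were 2 of 2 class II pathway genes and 1 of 10 receptors and kinases. None of 6 feedback regulators was, which are too few to set against that share. The mean used for the filter included this library, and genes of these lists that passed only through it were not set aside. For any such gene this direction was favoured in advance.

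Sites for the seed of the deleted microRNAs were searched in these genes. The mature miR-206-3p, at chr1:20679055-20679076 on the plus strand (RefSeq, GRCm38.p6), is printed because its seed is what the family shares, with the seed (bases 2 to 8) in capitals.
miR-206-3p: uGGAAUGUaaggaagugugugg
The matching 7-base site ACATTCC lay in the longest annotated 3′ UTR of 2 of the 33 genes (6.06%), Oasl2 and Rsad2, and of 11.7% of 10367 tested genes with a 3′ UTR (GENCODE release 21). Of the 20 tested members 0 held it. No member held the 8-base site. Rsad2 stayed at or under 0.0460 FPKM in every library. Oasl2 was 0.0855 to 0.344 FPKM in control GM, and in tKO GM 0.0283 to 0.163 FPKM in 3 libraries and 2.81 FPKM in the one that stood apart. In DM3 it was 0.181 to 0.362 FPKM in control cells and 0 to 0.319 FPKM in tKO cells, which overlap.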

How the data were processed

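RNA-seq FPKM values of 16 libraries, scaled by the authors to gene length and library total, were used as deposited. The submitters' processing notes name STAR, DESeq and build mm10; versions, roles, annotation and strand use are not given in the sources used here. Fragment numbers were recovered from the FPKM steps (100% of values whole within 0.01 fragments) for the detection floor, which covers counting error only, and for voom.

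log2(FPKM + 1) was fitted with limma 3.58.1 (R 4.3.3, trend and robust moderation) as group means over all 16 libraries, or with line or stage as a covariate within a stage or genotype. Genes needed a mean of 0.5 FPKM (11832 genes), with Benjamini-Hochberg adjustment over all of them and a threshold of 0.05. Fold changes of low genes are understated on this scale. The script was tested on simulated data. Other steps used Python 3.11.15 with pandas 2.3.3.

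Members and gene lists were chosen with earlier results of these data known. Library values are given for genes called between genotypes or clones, and for the 5 largest differentiation changes called in both genotypes. Stat2, Irf9, Irf7, B2m, H2-K1 and H2-D1 are given always. From other lists at most 3 called genes per contrast were named. Genes of the library that stood apart, and Tapbp, H2-K1 and Ifi27 where lines or cultures differed, were chosen after their values were seen. Alternatives were another pseudocount, filter, scaling or test, culture as a block, only the compared libraries, line averages, and leaving out lines or libraries. One gene of the receptor and kinase list is not reported here.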

Additional observations from a re-analysis of the deposited data

Results flagged for a closer look

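Of 121 groups of 4 libraries examined, 26 held a library far from the other 3 (gap over range above Dixon's critical value for 4 samples). The groups are not independent, since the genes share the same libraries and 18 of the 26 flags fell on 1 library. The rule was applied to untransformed FPKM, some of it near the floor, so the number flagged has no chance rate to be set against. In tKO GM the library was clone 2, culture 2, the highest for 18 genes. Its regulator and sensor values were 8.14 FPKM for Irf7, 10.6 FPKM for Irf9 and 16.6 FPKM for Ddx58. Its effector values were 7.45 FPKM for Ifit1, 7.85 FPKM for Ifit3, 0.550 FPKM for Mx2, 2.20 FPKM for Oas1a, 0.401 FPKM for Oas2, 2.81 FPKM for Oasl2, 42.3 FPKM for Bst2, 1.32 FPKM for Gbp2 and 1.28 FPKM for Gbp3. The rest were 42.8 FPKM for Isg15, 5.56 FPKM for Usp18, 186.9 FPKM for Ifi27, 22.7 FPKM for Ifi35, 2.59 FPKM for Ifi44 and 6.55 FPKM for Xaf1.

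In tKO DM3 the same clone and culture number stood above the others for Mx2 (0.389 FPKM against at most 0.0561), Oas2 (0.0324 FPKM against 0) and Usp18 (0.926 FPKM against at most 0.0880). Isg20 was highest in clone 1, culture 1 (14.01 FPKM), and B2m lowest in clone 2, culture 1 (266.0 FPKM). In control DM3, Irf9 (1.46 FPKM) and Ifi44 (0.178 FPKM) were highest in line 1, culture 2, and Ifih1 (0.232 FPKM) in line 2, culture 2.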

How the results depend on the processing

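No call between genotypes, for the interaction or between control lines was made or lost under another pseudocount, filter, scaling or test. Same-numbered deviations correlated over 0.1 in 7 of 8 pairs in GM, 5 of 8 in DM3 and 6 of 8 across stages. The mean correlations were 0.25, 0.19 and 0.20. Culture numbers may thus mark a shared effect in part, and the main fit held no term for it. With a replicate block within each stage 5.37% of all tested genes passed between genotypes in GM, against 2.06% without a block. With culture as a replicate block 11 of the 20 genes passed between stages in tKO cells (7 with all libraries and no block). Of these 10 rose and 1 fell, where 25.7% of all tested genes rose and 36.8% fell. With a replicate block within each stage 4 rose, where 22.1% of all tested genes did. Only the compared libraries gave 4 that rose, where 20.9% of all tested genes did, and voom gave 5 between cultures in GM. Leaving out lines or libraries gave 1 to 9 genes between stages in control cells, 3 to 13 in tKO cells, 0 to 6 between cultures in DM3, and 0 to 1 between cultures in GM, between clones and between genotypes in GM. Over all tested genes 37.5% to 68.7% then passed between stages in control cells, and 51.4% to 61.1% in tKO cells. B2m passed between stages under all 28 alternatives in each genotype, whereas in tKO cells Isg20 was lost under 16, Ifit2 under 11 and Stat2 under 11, and in control cells Ifit3 under 7. The cause was not tested. Uncalled genotype differences turned sign. In GM, Irf9 was -0.0599 with a pseudocount of 0.1 and -0.0232 with voom, and Irf7 -0.43 and -0.51. In DM3, Irf9 was -0.0157 with that pseudocount, -0.0208 with median-of-ratios scaling and -0.0447 with voom. Leaving out libraries or lines gave, in GM, -0.54 to 0.0638 for Stat2, -0.52 to 0.46 for Irf9, -0.71 to 0.77 for Irf7, -0.25 to 0.32 for B2m, -0.16 to 0.29 for H2-D1, -0.58 to 1.92 for Isg15 and -0.84 to 1.33 for Bst2. In DM3 it gave -0.0332 to 0.35 for Stat2, -0.0775 to 0.0968 for Irf9, -0.43 to 0.87 for H2-K1 and -0.25 to 0.13 for H2-D1. The filter on mean FPKM left 13 genes untested.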

Other observations

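Outside the 33 genes, 8 tested genes were also at least 2-fold above the next GM library in tKO clone 2, culture 2, and were chosen after their values were seen. Ifi27l2a (80.8 FPKM against at most 5.77 in the other GM libraries), Lgals3bp (58.6 against 25.03) and Irgm1, an interferon-induced GTPase (25.9 against 11.7), belong to the list of other interferon-stimulated genes. Apol9a (64.4 against 20.1) and Apol9b (78.1 against 28.5) are in no list used here. They are near-identical copies, so their separate values are uncertain. Myl9 (140.8 against 50.9), Cnn1 (15.9 against 6.85) and Actg2 (1154 against 564.7) encode smooth muscle contractile proteins and are in none of the lists either. The other GM library with many such genes was tKO clone 1, culture 2, with 28, and none of the 33 genes was among them.

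Cd74, the class II invariant chain, stood at 80.5 and 65.8 FPKM in tKO clone 1 in DM3, against 7.36 to 21.1 FPKM in the other 6 DM3 libraries. In GM it was higher in culture 2 than in culture 1 in every line, by 1.30 on the log2(FPKM + 1) scale (limma, Benjamini-Hochberg adjusted p = 0.0188). Without tKO clone 2, culture 2, neither Cd74 nor any other tested gene passed between cultures in GM. Leaving out 1 library removes its pair from this comparison, and what the lost calls rest on was not tested. No tested gene passed either without culture 1 of that clone, or without either GM library of control line 2. Without a GM library of tKO clone 1 0.101% of all tested genes passed, and without one of control line 1 1.06% or 1.7%.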
